A study of Homo sapiens with 6 samples.

Results

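SPINK13, C6orf127, FCN2, ARHGEF38 and BCAS1 are 5 little-studied genes that were bright in pLUM cells and at or near the array background in pLB cells. They were selected on this same comparison, as genes among the largest decreases in pLB that are seldom described in breast cancer, and they are 5 of 25940 gene names on the array. Together they have 8 of its 34127 probes, and all 8 passed the filter on dim signals (at least 3 arrays with a signal well above background). Their levels are therefore given as a description, with no test.

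The arrays compared 2 isogenic lines grown from T47Dco xenografts in ovariectomized NSG mice, T47Dco being a subline of the estrogen receptor positive human breast cancer line T47D. pLUM is the luminal line, derived from an E tumor (E is estradiol), selected as CLD3+CD49f- cells and treated with 1 nM E for 72 h. pLB is the luminobasal line, derived from an E+P tumor (P is progesterone), selected as CLD3-CD49f+ cells and kept estrogen withdrawn (EWD). Each line is a single sorted population, 3 arrays were made per line from triplicate sorts, and line and hormone coincided on every array and cannot be told apart. Cells had been stained for CK5 and sorted before RNA extraction, and the labels do not say which CK5 fraction was hybridized. No source says that the sorts came from separate cultures, so p-values measure only the spread between these samples.

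The 5 genes belong to unrelated families. SPINK13 encodes a Kazal-type inhibitor, a small secreted protein that blocks serine proteases. C6orf127, now named CLPSL1, encodes a relative of colipase, the cofactor of pancreatic lipase in the gut. FCN2 encodes ficolin-2, a secreted lectin made mainly in liver that binds sugars on microbes and starts the lectin pathway of complement. ARHGEF38 encodes a guanine nucleotide exchange factor of the Dbl family, proteins that load small GTPases with GTP and so control the actin cytoskeleton. BCAS1, breast carcinoma amplified sequence 1, lies in the 20q13 region that is amplified in some breast cancers, and in the brain it marks cells that are beginning to make myelin.

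The brightest probe of a gene, by its mean over all arrays, represents it here, and these 60-base probes define which stretch of each transcript was measured. The FCN2 and C6orf127 probes are shown whole and the others by their first 30 bases, in the sense of the transcript, and positions are those of the files on hg19. The capitals in the C6orf127 probe mark a stop triplet, which ends a reading frame of that probe with no earlier stop. Of its other frames, 1 holds no stop. None of the 5 probes shared a run of more than 14 bases with a probe of another gene on the array.
SPINK13, chr5:147665702-147665761, plus strand: catccctatgctgtacttaaatgtcgaaca
C6orf127, chr6:35755728-35755787, plus strand: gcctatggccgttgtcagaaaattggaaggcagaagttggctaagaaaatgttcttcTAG
FCN2, chr9:137779164-137779223, plus strand: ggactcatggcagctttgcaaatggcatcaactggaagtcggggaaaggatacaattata
ARHGEF38, chr4:106601994-106602053, plus strand: cacgtattttccatgatgggataaatgttt
BCAS1, chr20:52560517-52560576, minus strand: aaatgatttgggaaaacaattgcttttgag

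Signals are given on a log2 scale on which 0 is the 75th percentile of that array, the level which 75% of its gene spots did not exceed. In pLUM, SPINK13 read 3.67, 3.84 and 2.40 on replicates 1, 2 and 3, and in pLB it read -7.65, -7.97 and -7.01. The pLUM mean was 3.30 ± 0.78 (SD, n = 3), and the third pLUM array lay well below the other two. Among 21091 tested probes that were well above background on all pLUM arrays, 1.51% had a larger SD between those arrays. The lines did not overlap on this probe, and SPINK13 was at least 387-fold lower in pLB. This bound sets the pLUM mean against the lowest signals that were well above background on the pLB arrays, because the probe was well above background on none of them. On a log2 scale it is -8.60.

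For C6orf127 the signal was 2.48, 2.16 and 2.30 on the pLUM arrays and -7.66, -7.98 and -6.99 on the pLB arrays. The mean in pLUM was 2.31 ± 0.16 (SD, n = 3), a spread close to that of the other probes, whose median SD was 0.21 in pLUM and 0.29 in pLB. The lines were far apart on every array, and C6orf127 was at least 195-fold lower in pLB. A second C6orf127 probe lies near the start of the transcript, at chr6:35748846-35748905. It read -4.42, -4.35 and -4.52 on the pLUM arrays and -7.01, -6.44 and -5.38 on the pLB arrays. It was well above background on the 3 pLUM arrays only, the lines again did not overlap, and the bound it gave was at least 1.82-fold lower in pLB.

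FCN2 had a single probe, which read 1.18, 1.21 and 1.42 on the pLUM arrays and -7.69, -7.89 and -6.99 on the pLB arrays. Its pLUM arrays were tightly grouped, with a mean of 1.27 ± 0.13 (SD, n = 3), and no pLB array was well above background. FCN2 was at least 94.5-fold lower in pLB.

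ARHGEF38 was measured by a pair of probes that the files list for different RefSeq transcripts. The representative probe read 1.66, 1.27 and 0.96 on the pLUM arrays and -7.52, -7.86 and -6.85 on the pLB arrays, and was at least 96.3-fold lower in pLB. The other, at chr4:106552377-106552436, read -0.66, -0.93 and -1.30 on the pLUM arrays and -5.18, -7.34 and -6.84 on the pLB arrays. It was the only one of the 8 probes that rose well above background on a pLB array, which was replicate 1. With its 2 dim pLB arrays at their lowest signal well above background it was at least 19.1-fold lower in pLB. Against that replicate 1 alone, which shared slide 1 with the 3 pLUM arrays, it was 18.7-fold lower. Both probes placed the 3 pLUM arrays in the same order, with the first highest and the third lowest.

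For BCAS1 the representative probe read 1.40, 1.41 and 1.19 on the pLUM arrays and -7.66, -7.30 and -7.02 on the pLB arrays. The pLUM mean was 1.33 ± 0.13 (SD, n = 3), and BCAS1 was at least 98.9-fold lower in pLB. A second probe, at chr20:52561474-52561533, read -2.81, -2.54 and -2.18 on the pLUM arrays and -7.52, -7.07 and -5.74 on the pLB arrays. It too was well above background on the 3 pLUM arrays only, and was at least 6.89-fold lower in pLB. That the lines did not overlap on these probes is what the choice of the genes fixes. Lines without overlap were also seen for genes under a 2-fold difference, such as SPINK7 and INTS12, so it says nothing particular about these genes. With the arrays of slide 1 alone, the bounds of the 5 representative probes were at least 103-fold to at least 423-fold. By the same 2-fold and adjusted p thresholds, 23.7% of all 23103 probes tested were lower in pLB and 21.9% were higher. In bulk samples, fewer cells that express a gene and less RNA per cell cannot be told apart.

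**Figure D1:**
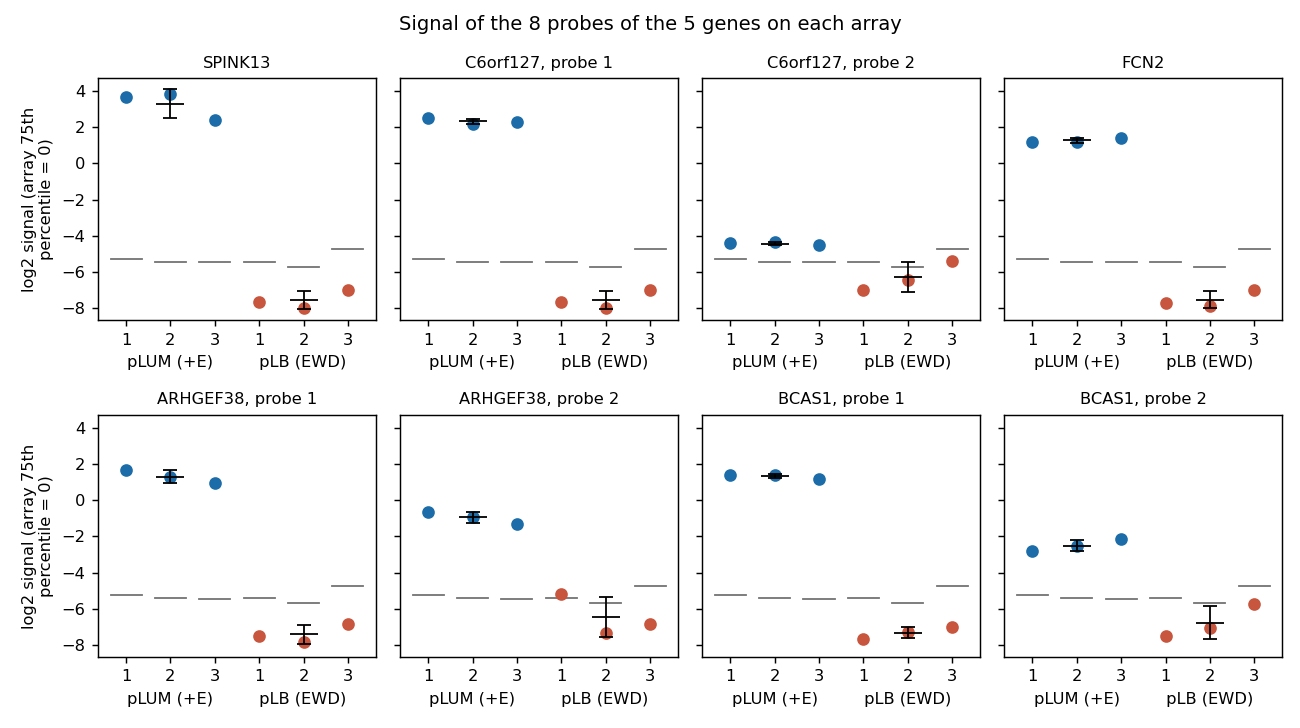
Log2 signal of the 8 probes (vertical axis, with the array's 75th percentile at 0) on the 3 pLUM arrays (blue) and 3 pLB arrays (red), with the mean and SD of each line in black. Short grey lines mark the lowest signal well above background on each array, and only the second ARHGEF38 probe reached it in pLB, on replicate 1.

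The deposited intensities show how close to background the pLB values were. On the pLUM arrays the 5 representative probes had intensities of 1080 to 8025, and on the pLB arrays of 2.75 to 4.76. The 144 to 152 negative control spots of each array, which match no human transcript, had median intensities of 2.86 to 4.51. Of the 15 values in pLB, 14 lay under the 95th percentile of the negative controls on their array. The exception was BCAS1 on pLB replicate 2, whose intensity of 4.41 was above all the negative controls of that array although it was not well above background by the scanner software.

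Those same 14 values were not measured signals. The scanner software had replaced each of them with a substitute value, which it writes where the signal left after background subtraction is too close to 0. The spread of the 5 genes between pLB arrays, and the order of their pLB levels, therefore carry no measurement. No value in pLUM was substituted. Of the remaining probes, the second C6orf127 and ARHGEF38 probes had no substituted value in pLB, and the second BCAS1 probe had 1. The C6orf127 intensities of 6.77 to 10.8 exceeded 98.6% or more of the negative controls. Those of ARHGEF38, 3.92 to 24.0, exceeded 63.2% or more.

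**Figure D2:**
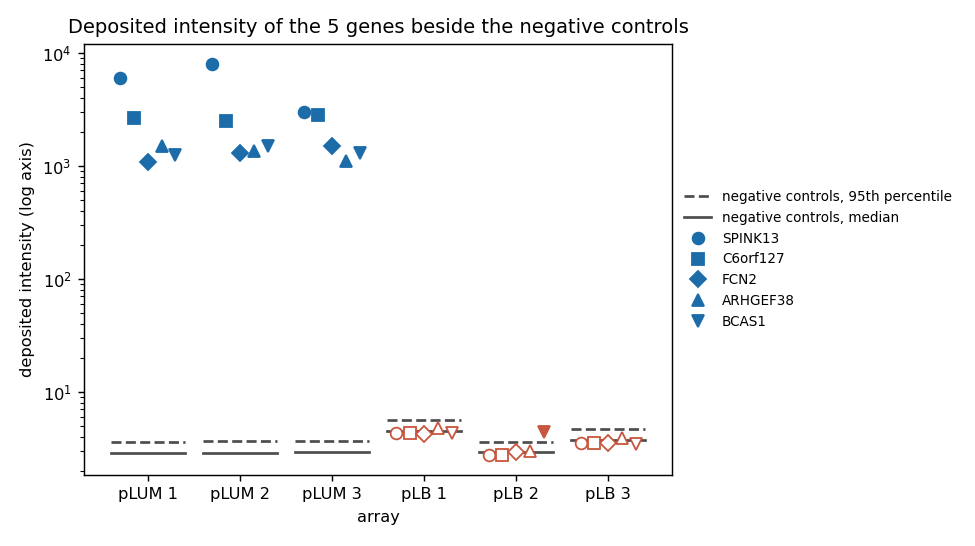
Deposited intensity (log axis) of the representative probe of each gene on each array, with the median and 95th percentile of the negative control spots. Open symbols are substitute values, which are 14 of the 15 values in pLB, and filled symbols are measured intensities of 1080 to 8025 in pLUM and 4.41 for BCAS1 on pLB replicate 2.

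In the order of fitted decreases among named genes well above background on all pLUM arrays, the genes next to these 5 were PIP, FLJ45983, ERBB4, MGP and CYP2B6. MGP, which encodes an inhibitor of calcification, was at least 95.6-fold lower in pLB, and CYP2B6, a drug-metabolizing cytochrome, at least 188-fold. Bounds have no order among themselves, so no rank is given.

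Genes whose signals were most alike over the 6 arrays were sought among 16196 genes well above background on all pLUM arrays. They were HELQ and EFR3B for SPINK13, PHACTR1 and KIAA1683 (now IQCN) for C6orf127, ZNF266 and FLJ23152 (now STMND1) for FCN2, MIIP and UNC5CL for ARHGEF38, and C3orf19 (now CCDC174) and ZMAT4 for BCAS1. Pearson's r was between 0.9994 and 1.00, but the arrays fall into 2 clusters, one per line, and any gene with a clear difference between lines scores high. Because 14 of the 15 representative values in pLB were substitutes, the choice among such genes rests partly on values that were not measured. Between 906 and 1049 of the candidates had an r of at least 0.99 with each of the 5 genes. The fold differences of the named genes ranged from 2.24 for MIIP to at least 55.9 for PHACTR1.

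Among extracellular serine protease inhibitors, the relatives of SPINK13, 16 of 30 genes were tested, 4 were lower and 8 were higher in pLB, and the median log2 difference was 0.86. Over all 17668 genes tested by their representative probe, 23.0% were lower and 22.7% were higher, with a median of 0.03. The Kazal-type inhibitors were divided. SPINK8 was at -0.41 ± 0.38 (SD, n = 3) in pLUM, dropped to background on all pLB arrays, and was thus at least 29.6-fold lower there (limma, adjusted p = 4.2e-06). SPINK4, which is known from mucus-secreting cells of the gut, was at least 4.03-fold lower (adjusted p = 0.00063).

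SPINK5, an inhibitor of skin proteases, was 4.51-fold higher in pLB (adjusted p = 0.0001, well above background on 2 of 3 pLUM arrays), although another SPINK5 probe did not pass the test (log2 difference 0.40, adjusted p = 0.28). SPINK2 was at least 4.86-fold higher (adjusted p = 3.2e-06). With normexp background correction neither SPINK5 nor SPINK2 was called, at adjusted p = 0.4 and 0.35. SPINK7 was 1.64-fold higher, under the 2-fold threshold, and SPINK1, SPINK6, SPINK9 and SPINK14 were not well above background on any array. Outside the Kazal family, SERPINA1, which encodes an antitrypsin, fell from 0.15 ± 0.07 to -3.65 ± 0.19 (SD, n = 3), whereas SERPINE2 was at least 71.8-fold and SLPI 15.7-fold higher in pLB.

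Of colipase and the pancreatic-type lipases, 9 of 14 genes were tested, and the median log2 difference was -0.12. Of these 3 were lower (33.3%) and 2 were higher (22.2%), against 23.0% and 22.7% of all genes tested. C6orf126, now named CLPSL2, is the other colipase-like gene beside C6orf127. It read 3.30, 3.03 and 2.91 on the pLUM arrays and -3.05, -3.19 and -2.16 on the pLB arrays. It was still measured on the 3 pLB arrays, the lines did not overlap, and the decrease was 59.0-fold (limma, adjusted p = 4.8e-06). For CLPS, which encodes colipase itself, pLUM arrays gave -3.27 ± 0.58 (SD, n = 3), pLB arrays gave -3.49 ± 0.56 (SD, n = 3), and the lines overlapped (adjusted p = 0.63). PNLIPRP2, a relative of pancreatic lipase with signal on 2 of 3 pLB arrays well above background, was 6.78-fold lower and LIPI at least 2.85-fold lower in pLB. LPL and LIPG, the lipoprotein and endothelial lipases, were at least 9.42-fold and 7.63-fold higher, and neither was called with normexp background correction (adjusted p = 0.062 and 0.083).

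In the lectin complement pathway, 14 of 24 genes were tested, and the median log2 difference was -0.34, or -0.20 with dim lines at their bounds. Of these 5 were lower (35.7%) and 3 were higher (21.4%), against 23.0% and 22.7% of all genes tested. FCN3, another ficolin that starts this pathway, was 1.53-fold lower in pLB, which is under the 2-fold threshold (adjusted p = 0.024). FCN1 was well above background on 1 array and was not tested. MASP2 was called lower but was well above background on no pLB array, and its bound was only 1.26-fold. It is named for that limit and not by the rule for named genes. C5, the component whose cleavage starts the terminal steps of complement, was 5.62-fold lower, and COLEC11, a collectin that recognizes sugars as ficolins do, was 3.68-fold lower. C4BPA was called lower, at least 2.03-fold, but its lines overlapped and it lost the call without any one of pLUM replicate 1, pLUM replicate 3, pLB replicate 1 or pLB replicate 2, and also with normexp background correction (adjusted p = 0.07). CR2, a complement receptor, was at least 4.50-fold higher, and SERPING1, the inhibitor of C1, was 4.00-fold higher. Neither CR2 nor SERPING1 was called with normexp background correction (adjusted p = 0.42 and 0.24).

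Of 68 other genes of the Dbl family of exchange factors, 58 were tested. In pLB 17 were lower (29.3%) and 14 were higher (24.1%), shares near the 23.0% and 22.7% of all genes, and the median log2 difference was -0.16. With ARHGEF38 itself left out, the largest fitted decreases were those of FARP1, FGD5 and ARHGEF26, at 9.63-fold, 8.23-fold and 7.08-fold, and FGD5 and ARHGEF26 each had 2 of 3 pLB arrays well above background. ARHGEF4, VAV2 and TIAM1, which activate Cdc42 or Rac, were 19.3-fold, 5.81-fold and 3.97-fold higher. ARHGEF37 and DNMBP, which share a domain layout with ARHGEF38 and were picked for that after the values were seen, went opposite ways. ARHGEF37 fell from 0.29 ± 0.07 to -0.87 ± 0.24 (SD, n = 3), or 2.23-fold (adjusted p = 0.001), and DNMBP was 3.47-fold higher in pLB (adjusted p = 0.00028). Both fell under the 2-fold threshold with normexp background correction, and ARHGEF37 also did with slide as a block.

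Around BCAS1, 45 of 53 genes of the 20q13 region were tested, and the median log2 difference was 0.68. In pLB 5 were lower (11.1%) and 18 were higher (40%), against 23.0% and 22.7% of all genes tested. BCAS4, another gene named for amplification in breast carcinoma, was 2.36-fold lower (adjusted p = 0.00041), and it was not called with normexp background correction (log2 difference -0.99). PARD6B, a cell polarity protein, was 34.8-fold lower, and TFAP2C, an AP-2 transcription factor of luminal cells, 5.53-fold lower. SULF2, which removes sulfate from heparan sulfate chains, was 318-fold higher, and BMP7 and SALL4 were 182-fold and 143-fold higher, SALL4 being well above background on 1 of 3 pLUM arrays. Without pLUM replicate 3, 3 genes of the region were lower.

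**Figure D3:**
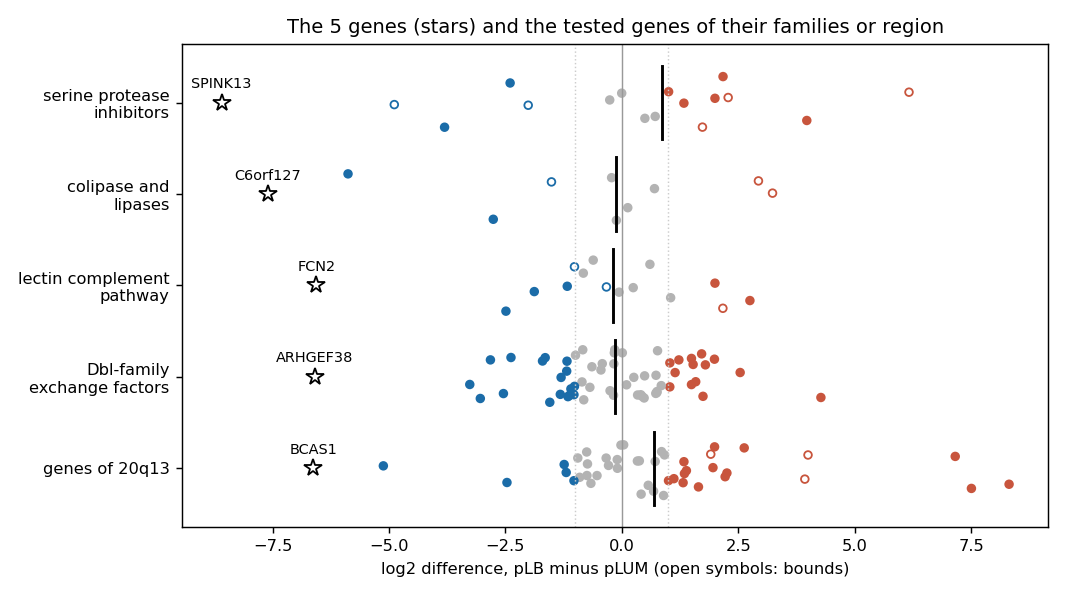
Log2 difference, pLB minus pLUM (horizontal axis), for the 5 genes (stars) and each tested gene of their family or region, in blue where called lower, red where called higher and grey where not called. Open symbols are bounds, black bars are medians and dotted lines mark a 2-fold difference. Over all genes tested, 23.0% were called lower and 22.7% higher. Among the families and region shown the lower share ran from 11.1% to 35.7% and the higher share from 21.4% to 50%.

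The genes beside each of the 5 on the chromosome were examined within 500 kb of its representative probe. Of 49 such genes on the array, 36 were tested, 10 were lower (27.8%) and 5 were higher (13.9%) in pLB, and the median log2 difference was -0.33. Over all genes tested the shares were 23.0% and 22.7%. The largest decreases of single neighbours were at C6orf127, where 4 of 15 tested neighbours were called lower. At ARHGEF38 the share was larger, with 4 of 6 called lower. No neighbour of these genes was called higher. The C6orf126 probe starts 8459 bp before that of C6orf127, and the LHFPL5 probe 26604 bp after it, and LHFPL5 fell 15.4-fold (limma, adjusted p = 0.0001). LHFPL5, a membrane protein of inner ear hair cells, read -1.07, -1.08 and -1.02 on the pLUM arrays and -5.95, -4.49 and -4.58 on the pLB arrays, of which 2 were well above background. CLPS lies between C6orf127 and LHFPL5, with its probe 7055 bp after that of C6orf127, and its lines overlapped. Farther away, ZNF76 was 4.64-fold and MAPK14 2.09-fold lower, though MAPK14 was not called with normexp background correction or without pLB replicate 1. The remaining 11 of 15 tested neighbours, CLPS among them, were not called.

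At FCN2 the nearest tested genes on one side, before its probe, moved the other way. COL5A1, a fibrillar collagen chain, has its probe 42837 bp before that of FCN2, and it rose from -1.72 ± 0.11 to 1.87 ± 0.19 (SD, n = 3), or 12.1-fold (adjusted p = 4e-06). BC058547, which the files name only by a clone, was at least 31.6-fold higher. OLFM1, the nearest tested gene on the other side, has its probe 233658 bp after that of FCN2. It was 3.92-fold lower on its representative probe.

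At ARHGEF38 the probe of INTS12, a subunit of the Integrator complex, starts only 2423 bp after that of ARHGEF38. INTS12 read -1.50, -1.15 and -1.28 on the pLUM arrays and -1.80, -1.88 and -1.72 on the pLB arrays, 1.40-fold lower and under the 2-fold threshold (adjusted p = 0.036). PPA2, on the other side, was 1.21-fold lower with overlapping lines (adjusted p = 0.33), and a second PPA2 probe read -0.88 (log2, adjusted p = 0.0028), which is also under the 2-fold threshold. TET2, GSTCD, NPNT and TBCK were 2.94-fold, 2.40-fold, 3.27-fold and 3.49-fold lower, and GSTCD was not called without pLB replicate 1. The 3 further TET2 probes were not called, nor was TET2 with the mean of its probes (log2 difference -0.47, adjusted p = 0.091).

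At BCAS1, CYP24A1, the enzyme that breaks down active vitamin D, was at least 3.75-fold higher and PFDN4, a prefoldin subunit, was 4.77-fold higher in pLB. With normexp background correction CYP24A1 was not called (adjusted p = 0.67). ZNF217, the transcription factor of the same amplified region, had pLUM arrays at 1.25 ± 0.18 (SD, n = 3) and pLB arrays at 1.23 ± 0.13 (SD, n = 3), which overlapped (adjusted p = 0.92). A second ZNF217 probe read 0.89 higher in pLB (log2, adjusted p = 0.0049), under the 2-fold threshold. ZNF217 is named for that role and not by the rule for named genes. AK024093 was 2.06-fold lower, well above background on 2 of 3 pLB arrays, and was not called with slide as a block, with normexp background correction (adjusted p = 0.076) or without pLB replicate 2. At SPINK13, SPINK5 was the only one of 4 tested neighbours that was called.

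**Figure D4:**
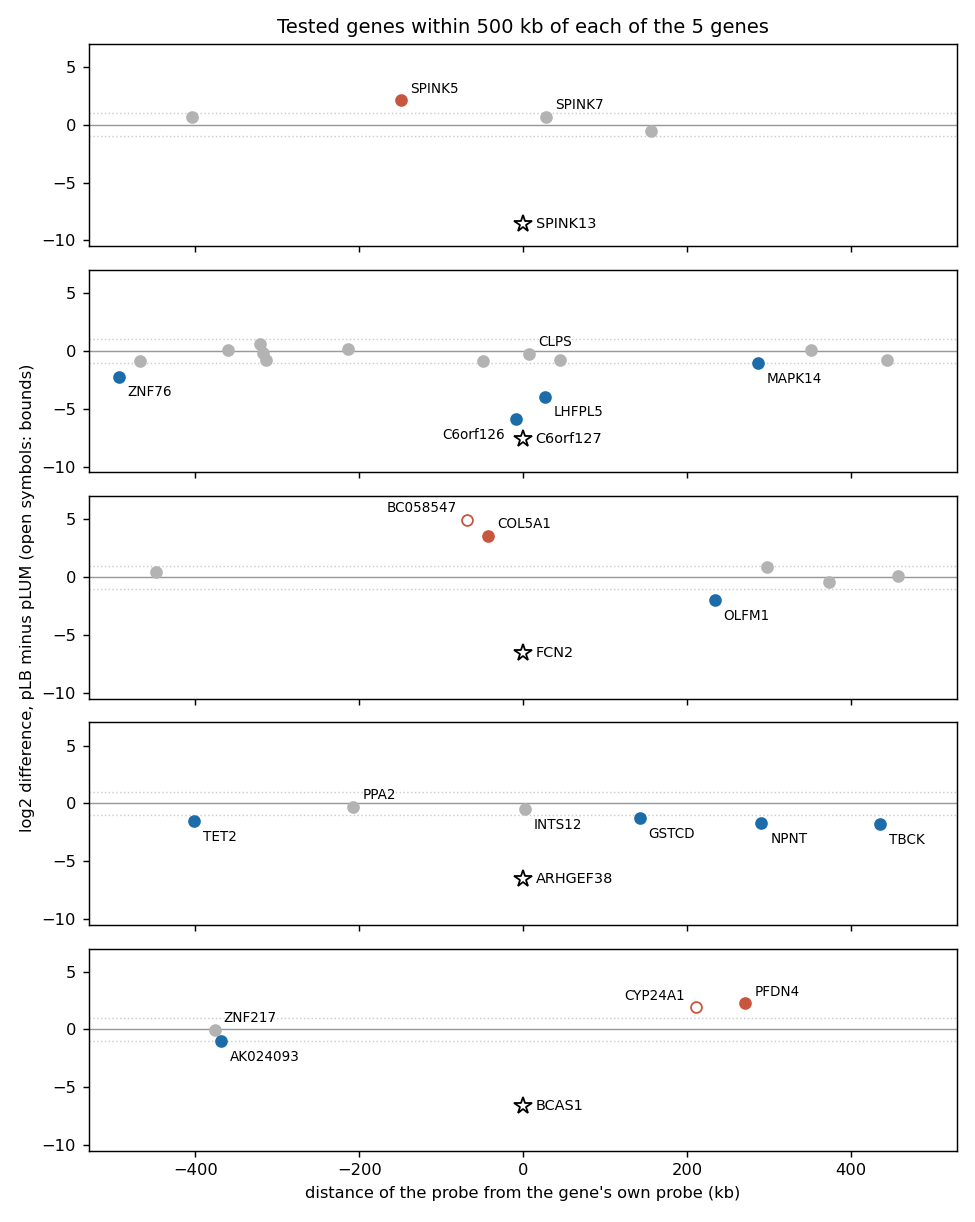
Log2 difference, pLB minus pLUM (vertical axis), of each tested gene against the distance of its probe from that of the named gene (horizontal axis, kb), 1 panel per gene. Blue and red are called lower and higher, grey is not called, and stars and open circles are bounds. C6orf126 and LHFPL5 are low beside C6orf127, whereas INTS12 beside ARHGEF38 (-0.49) and CLPS beside C6orf127 (-0.22) lie within a 2-fold difference.

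RefSeq promoters of GRCh38.p14 were found for SPINK13, CLPSL1, FCN2 and ARHGEF38, and not for BCAS1. The 250 bases before each start were searched on both strands for the estrogen response element GGTCANNNTGACC and for AGGTCA, which is a single arm of that element with the base before it. They were also searched for the letters TGTTTAC of FOXA factors, for AGATAA of the family of GATA3, for GCCNNNGGC of AP-2 factors and for the TATA box letters TATAAA. A full element that follows an A or precedes a T also holds the single arm. Only 2 matches were found, an AP-2 match in FCN2 that starts 246 bases before the start site and a single arm in ARHGEF38 that starts 45 bases before it. Of all 35116 promoters, 19.79% hold the AP-2 letters and 12.08% the single arm, while 0.04% hold the full element, 2.98% FOXA, 9.17% GATA and 10.72% the TATA box letters. The 2 promoters with a match are shown with it in capitals.
FCN2, chr9:134880560-134880809, plus strand: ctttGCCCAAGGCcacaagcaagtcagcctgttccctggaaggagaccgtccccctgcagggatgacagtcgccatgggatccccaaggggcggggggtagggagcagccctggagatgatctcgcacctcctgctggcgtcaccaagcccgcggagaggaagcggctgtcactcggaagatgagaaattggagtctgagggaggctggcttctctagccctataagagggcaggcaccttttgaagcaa
ARHGEF38, chr4:105552370-105552619, plus strand: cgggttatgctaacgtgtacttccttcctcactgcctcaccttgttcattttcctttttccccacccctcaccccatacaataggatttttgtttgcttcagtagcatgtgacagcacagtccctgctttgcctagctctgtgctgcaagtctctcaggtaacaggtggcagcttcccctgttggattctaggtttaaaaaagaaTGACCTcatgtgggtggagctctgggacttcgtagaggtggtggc

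Markers of the lines are given as a description and are no independent check of the labels. The lines had been sorted on CLD3 and CD49f, and the cells on CK5. Most of the other markers are in the paper's own list of differences between these lines. Of 10 luminal markers 8 were lower in pLB, KRT18 did not pass and EPCAM was higher, and 9 of 9 luminobasal markers were higher. CD44 was left out of these 9, although the paper lists it as a marker of pLB, with a smaller RNA increase than any of them. Over all genes tested, 23.0% were lower and 22.7% were higher in pLB. Of 11 markers of stromal and blood cells 6 were tested and 3 of these, COL1A2, VWF and CD68, were higher in pLB, with COL3A1, PDGFRB, DCN, PECAM1 and CD3E too dim to test. VWF was well above background on no pLUM array, and its bound was only 1.80-fold. The summed linear level of those 6, in units of the 75th percentile, was 1.00 to 1.12 on the pLUM arrays and 0.97 to 1.49 on the pLB arrays, and its part in the results was not tested.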

How the data were processed

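RNA of 3 pLUM and 3 pLB samples was hybridized to 1-colour Agilent arrays. The deposited files are scanner output of Agilent Feature Extraction 10.10.1.1 and give an intensity per spot, background-subtracted and detrended within the array by the authors' software but not normalized between arrays, with flags for outliers, saturation, substitute values and signals well above background. No gene spot was saturated. Intensities were divided by their array's 75th percentile and log2-transformed. Control spots were left out, as were 296 to 387 gene spots per array with an outlier flag, and replicate spots were averaged. Between 21280 and 22772 probes per array were well above background. Probes that were so on at least 3 arrays were tested (limma 3.58.1, lmFit and eBayes, R 4.3.3), with Benjamini-Hochberg adjustment over all of them. Calls were made at a 2-fold change with adjusted p below 0.05. With 3 arrays against 3, an exact permutation cannot go below p = 0.1. A fold is a lower bound where all arrays of a line were dim. Each dim array then entered at the higher of its own signal and its lowest signal well above background. Calls and p-values rest on the signals without these bounds, so a called gene can have a bound under 2-fold.

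The members and the gene lists were chosen with earlier results of these data known. The text names the 5 genes with all their probes, the measured SPINK, ficolin, colipase and BCAS genes, up to 3 genes called in each direction per list with the largest fitted change, the called and nearest neighbours, and the genes most alike to or next to the 5. Gene names are those of the files, on hg19, and 14991 of 17668 tested genes matched a RefSeq symbol of GRCh38.p14. No protein sequence was used here, and 1 gene that the rule names is not reported here. Alternatives were normexp background correction (offset 50), quantile and median scaling, other filters on dim probes, no fold threshold, the methods' t-test, the mean of a gene's probes, slide or replicate number as a block, a window of 1 Mb and leaving out each array.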

Additional observations from a re-analysis of the deposited data

How the results depend on the processing

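The differences of the 5 genes kept their sign under all alternatives run, which their choice as some of the largest decreases fixes, so it adds no support. With normexp background correction, which adds an offset of 50, the log2 bounds were -6.45 for SPINK13, -5.49 for C6orf127, -4.49 for FCN2, -4.37 for ARHGEF38 and -4.56 for BCAS1. With the mean of a gene's probes the values were -4.24 for C6orf127, -6.04 for ARHGEF38 and -4.71 for BCAS1. The ARHGEF38 value is not a bound, because its second probe entered at -5.50, with its dim pLB arrays at their own signals. With arrays left out in turn, BCAS1 ranged from -6.90 to -6.42, the first of these without pLB replicate 3. Quantile or median scaling and the slide block moved none of the 5 by more than the spread between replicates.

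With normexp, 3000 probes were higher in pLB, against 5050. The protease inhibitors then had 2 genes higher, the lipases 0, the lectin pathway 3 lower and 1 higher, the Dbl family 9 lower and 9 higher, the 20q13 region 2 lower and the neighbours 3 higher. Without a fold threshold 11 genes of the 20q13 region were lower, and 16 neighbours were lower and 8 higher. The 20q13 region had 3 to 6 genes lower with arrays left out. In a window of 1 Mb, 13 neighbours were higher. The cause of these shifts was not tested, beyond what each alternative changes by construction. ZNF217, near 0, changed sign with normexp (0.035), with the mean of its probes (0.43) and with arrays left out (-0.13 to 0.051), and CLPS ranged from -0.49 to 0.10 with arrays left out.

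The deviations of same-numbered arrays correlated at -0.27, -0.10 and -0.22, which gives no sign that replicate numbers pair the samples. Deviations within a line cancel out, so these values are not independent and cannot exclude a pairing. With the replicate block 5388 probes were lower and 4979 higher in pLB, and no count of calls moved by over 1.5 times. LIPI and C4BPA were not called by the methods' t-test after adjustment.

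Signals at background limit the comparison, since a fold against a dim line is only a bound, and the 3 arrays per line limit its precision.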

Other observations

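Several genes named beside the 5 had probes that disagreed. Of 4 TET2 probes, only the representative was called, with the others at log2 differences of 0.37, -0.63 and -0.05, and with the mean of its probes TET2 was not called. OLFM1 was called lower by 2 probes, at -1.97 and -1.25, whereas its other two read 0.65 and 1.20 and did not pass the test. A second VAV2 probe read 0.50 (adjusted p = 0.11 from limma), against 2.54 for the representative. The 3 SERPING1 probes with the higher signals in pLB differed by 2.00, 3.03 and 3.75, and the fourth read -0.13 and was not called. COL5A1 was more uniform, with its 3 probes at 3.60, 3.92 and 3.56.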
